A study of Mus musculus with 30 samples.

Results

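The 9 genes described here encode receptors that steer lymphocytes and other white blood cells through tissues: Cxcr4, Cxcr5, Gpr183, Ccr7, Ccr6, Cxcr3, Ccr9, Ccr1 and Ccr2. They were chosen by name and not by a measured value, and are 9 of the 21887 protein-coding genes of mouse assembly mm10 in the RefSeq table used. A peak was assigned to a gene when it overlapped the gene's RefSeq span widened by 1 kb, and otherwise to the protein-coding gene with the nearest end within 50 kb. The study used chromatin immunoprecipitation with sequencing to ask how lymphoid cells change without Crebbp, which encodes the histone acetyltransferase CBP. Its 15 peak lists cover 3 histone acetylation marks (H3K27ac, H3K18ac and H3K56ac) in 14 lists and CBP itself in 1 list.

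Mice of every group were of strain C57BL/6 and carried floxed Crebbp (CBPfl/fl). The wild-type groups lacked the recombinase (Mx-Cre-), and the Crebbp-/- groups carried it (Mx-Cre+) under the interferon-inducible Mx promoter, which is active in many cell types and not in lymphoid cells alone. B220+ cells sorted from wild-type spleens served as B cells, with 2 lists per acetylation mark and the only CBP list. The lymphoproliferative disease (LPD) of Crebbp-null mice was represented by unsorted splenocytes, also with 2 lists per mark. Lymphoid progenitors (Lin- IL7ra+) were sorted from bone marrow, with 1 H3K27ac list for each genotype. Genotype, disease and sorting all separate the LPD lists from the B cell lists and cannot be told apart, nor can fewer marked cells and less mark per cell in bulk samples. Ages, and whether replicates came from separate animals, are not given in the sources used here, so the spread between 2 lists may be technical.

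Chemokine receptors are G protein-coupled receptors that move cells along gradients of small secreted proteins. Cxcr4 binds Cxcl12 and holds haematopoietic cells in bone marrow. Cxcr5 leads B cells to the Cxcl13 of follicles, Gpr183 (EBI2) follows oxysterols to the follicle edge, and Ccr7 draws cells to the Ccl19 and Ccl21 of T cell zones. Ccr6 (ligand Ccl20) and Ccr9 (ligand Ccl25) serve mucosal homing. Cxcr3, Ccr1 and Ccr2 are receptors of inflammatory chemokines, the last of these a receptor of monocytes. H3K27ac marks active promoters and enhancers, and CBP is among the enzymes that place it. H3K18ac and H3K56ac lie at similar sites.

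In mm10 the members lie on 6 chromosomes. Cxcr4 spans chr1:128588199-128592299, Cxcr5 chr9:44511787-44526444, Gpr183 chr14:121952331-121965193, Ccr7 chr11:99144199-99155077 and Ccr6 chr17:8236041-8258519. Cxcr3 spans chrX:101731535-101734147. Ccr9 at chr9:123767211-123783457, Ccr1 at chr9:123962126-123968692 and Ccr2 at chr9:124101918-124109140 belong to a cluster of chemokine receptor genes. Gpr183 lies within the span of Ubac2, so its regions count for both genes, and Cxcr5 overlaps the edge of Bcl9l. The nearest other gene to Cxcr4 is 171 kb away, whereas Ccr1 is 7.74 kb from Ccr1l1.

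The DNA upstream of the start sites of 3 members is shown because their H3K27ac there was kept, lost or gained in the data below. The 250 bases before the start were taken from the RefSeq promoter table of GRCm38.p6 (mm10), which had 8 entries for 7 of the 9 members, 2 of them for Ccr6, while Cxcr5 and Ccr7 were not matched. Shown 5′ to 3′ on the gene's strand are Cxcr4, whose start site was acetylated in all 14 acetylation lists, Ccr6, whose start sites had no H3K27ac in LPD, and Ccr9, whose start site had H3K27ac in LPD alone. Capitals mark matches, on either strand, to the motifs named after the sequences.
Cxcr4, chr1:128592300-128592549 (- strand): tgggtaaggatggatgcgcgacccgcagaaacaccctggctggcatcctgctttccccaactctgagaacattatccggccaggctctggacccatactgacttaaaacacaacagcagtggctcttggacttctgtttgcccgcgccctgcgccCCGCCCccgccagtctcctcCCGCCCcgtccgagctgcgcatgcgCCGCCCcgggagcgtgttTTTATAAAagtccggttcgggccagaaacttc
Ccr6 upstream entry, chr17:8235793-8236042 (+ strand): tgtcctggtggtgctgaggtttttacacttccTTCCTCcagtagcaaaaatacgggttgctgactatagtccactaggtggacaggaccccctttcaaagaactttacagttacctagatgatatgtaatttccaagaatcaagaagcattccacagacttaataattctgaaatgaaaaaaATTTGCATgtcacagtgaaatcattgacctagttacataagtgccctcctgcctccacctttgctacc
Ccr6 downstream entry, chr17:8242276-8242525 (+ strand): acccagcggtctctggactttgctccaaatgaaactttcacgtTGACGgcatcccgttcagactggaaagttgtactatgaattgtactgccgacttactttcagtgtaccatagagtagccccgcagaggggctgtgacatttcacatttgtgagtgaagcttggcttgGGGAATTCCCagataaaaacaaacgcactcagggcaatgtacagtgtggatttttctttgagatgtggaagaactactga
Ccr9, chr9:123766961-123767210 (+ strand): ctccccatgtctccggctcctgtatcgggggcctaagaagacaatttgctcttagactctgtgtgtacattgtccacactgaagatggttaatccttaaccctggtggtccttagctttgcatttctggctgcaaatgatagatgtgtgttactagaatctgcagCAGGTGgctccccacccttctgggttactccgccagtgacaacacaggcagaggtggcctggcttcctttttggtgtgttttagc

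The Cxcr4 window was 61.2% G and C with 19 CpG dinucleotides, against medians of 52.4% and 6 over 32851 windows. It held 3 GC boxes (GGGCGG, found in 32.7% of windows) and a TATA box (TATAAA, in 12.4%) that reads on both strands and so counts as 2 overlapping matches. The upstream Ccr6 window was 41.2% G and C with 1 CpG, and held the octamer ATGCAAAT, present in 1.6% of windows and known as the site of Oct factors in B cell genes, and the ETS-type core GAGGAA, present in 23.3%. The downstream Ccr6 window held the half-site TGACG (17.8% of windows) and a kappaB-type site, GGGNNTTCC (4.98%), which reads on both strands. The Ccr9 window held an E-box, CAGGTG (17.2%). Of the windows not shown, Cxcr3 held the E-box, the ETS-type core and the RUNX core TGTGGT (14.05% of windows), Ccr1 held the RUNX and ETS-type cores, and Gpr183 and Ccr2 held none of the 8 motifs. These are matches of letters and do not show binding.

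No read depth can be taken from lists of positions, so the covered length of each list stands in its place. It was 9.43 and 6.32 Mb in wild-type and Crebbp-null progenitors, and 0.305 Mb for CBP. In B cells and LPD respectively it was 26.4 to 27.1 and 18.2 to 26.2 Mb for H3K27ac, 13.3 to 14.01 and 21.4 to 29.5 Mb for H3K18ac, and 9.44 to 10.6 and 17.0 to 18.3 Mb for H3K56ac. The LPD lists of H3K18ac and H3K56ac thus held more sequence in total. Member lengths are therefore also given scaled to the mean covered length of the 4 lists of a mark. All 8 B cell markers (among them Cd79a and Ms4a1) had H3K27ac in every B cell and LPD list, summing to 48.5 to 50.6 kb in B cells and 41.6 to 58.5 kb in LPD. Of 10 myeloid markers 0 had H3K27ac in B cells and 0 to 1 in LPD (Itgam, 0.251 kb), and of 8 T cell markers 4 had it in B cells (8.06 to 8.24 kb) and 3 in LPD (3.43 to 5.05 kb). NK cell markers had 0.333 to 0.373 kb in B cells, all of it at Prf1, and 0 kb in LPD, plasma cell markers 20.1 to 20.7 kb in B cells and 15.9 to 21.0 kb in LPD, and erythroid markers 0.742 to 0.797 and 1.23 to 2.15 kb. Of 8 lymphoid progenitor markers 5 had H3K27ac in each progenitor list (7.14 kb in wild type and 5.33 kb in Crebbp-null). So had 5 of 8 B cell markers (6.70 and 3.45 kb), and 4 and 3 of 8 T cell markers (6.46 and 2.93 kb). In the B cell lists 1 progenitor marker, Flt3, had H3K27ac (8.27 to 8.74 kb). The part of other cells in the results at the receptors was not tested.

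Acetylation at the homing receptors differed by mark between B cells and LPD. H3K27ac over the 9 members summed to 110.27 and 110.269 kb in the B cell lists and to 70.9 and 48.7 kb in the LPD lists. Both LPD values lay below both B cell values, a log2 ratio of -0.91 between the sums. Taken per gene, the median log2 ratio over genes with peaks in all 4 lists was -0.71 for 7 members and -0.13 for all genes. H3K18ac summed to 44.4 and 50.7 kb in B cells and 100.2 and 77.8 kb in LPD. The log2 ratio of these sums was 0.90, and shrank to 0.019 per covered Mb. Its median per gene was 0.96 over 7 members and 0.40 over all genes. H3K56ac summed to 28.6 and 23.7 kb in B cells and 41.8 and 47.0 kb in LPD. The log2 ratio of these sums was 0.77, and turned to -0.053 per covered Mb. Its median per gene was 0.33 over 7 members, below the 0.50 of all genes. The exact two-sided permutation test gave p = 0.333 for each of the 3 unscaled sums, the smallest value that 2 lists against 2 can give. No difference in this design can pass 0.05, and words such as higher or lower mean here that both lists of a group lay on 1 side of both lists of the other.

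**Figure D1:**
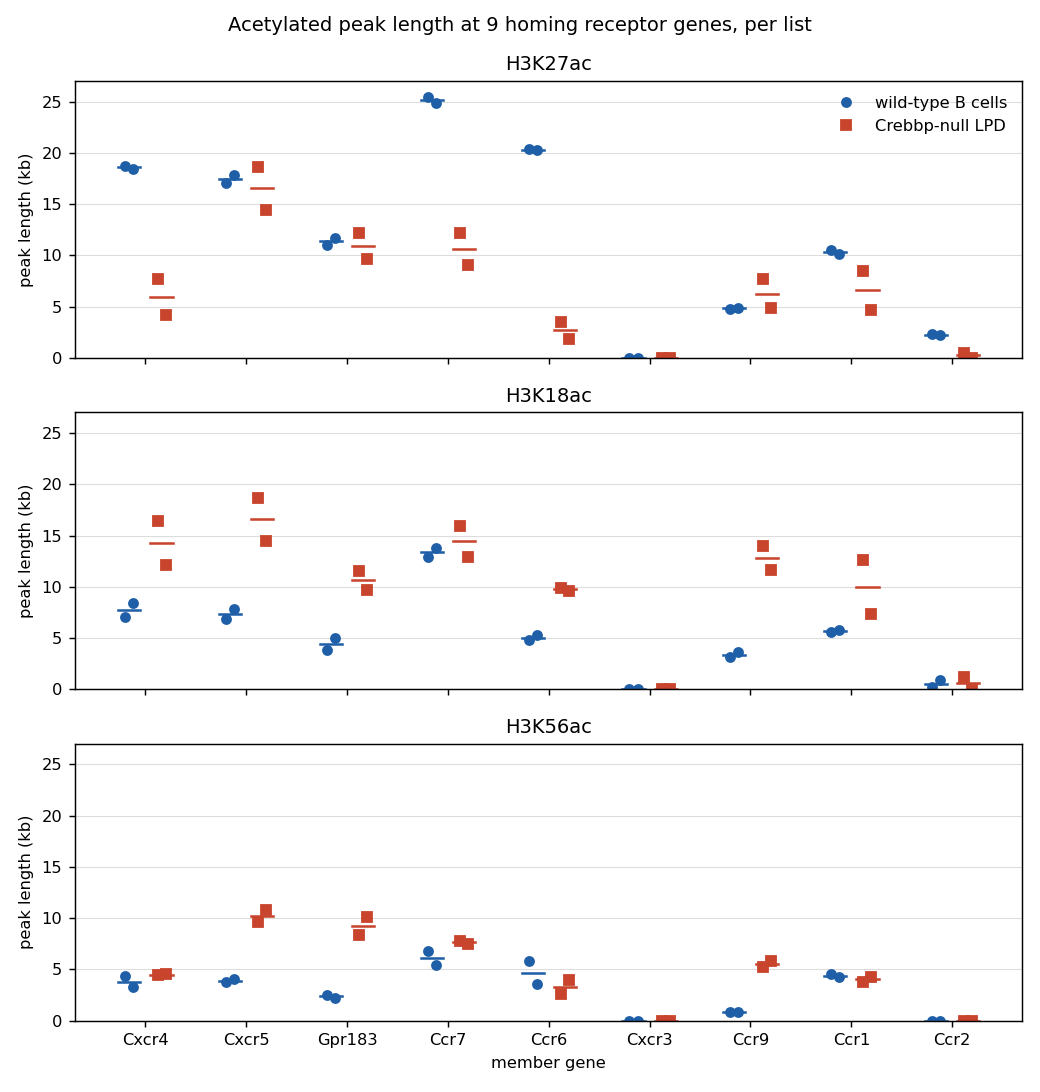
Peak length in kb (y axis) assigned to each member gene (x axis) in the 2 wild-type B cell lists (circles) and the 2 Crebbp-null LPD lists (squares) for the 3 marks, with group means as short lines. For H3K27ac the LPD lists of Cxcr4, Ccr7, Ccr6, Ccr1 and Ccr2 lie below the B cell lists, and no list has a peak at Cxcr3.

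Gene by gene, H3K27ac was lower in both LPD lists at 5 members (Cxcr4, Ccr7, Ccr6, Ccr1 and Ccr2) and higher at 0, where 38.9% of the 11988 genes with a region were lower and 23.2% higher. H3K18ac was higher at 6 members (all but Ccr7, Ccr2 and Cxcr3) and lower at 0, where 54% of genes were higher and 12% lower. H3K56ac was higher at 5 (Cxcr4, Cxcr5, Gpr183, Ccr7 and Ccr9) and lower at 0, against 67.1% and 8.48% of genes. Of members with a region these were 6 of 8 for H3K18ac and 5 of 7 for H3K56ac, the latter near the share of all genes.

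After scaling to covered length, the receptors divided into 2 sets. Cxcr5, Gpr183 and Ccr9 were higher in LPD in all 3 marks, as 15.8% of genes were. For H3K27ac this depended on the way of scaling. With lists cut to equal length by keeping the widest peaks, the H3K27ac difference was 0.253 kb at Cxcr5. It was then -0.36 kb at Gpr183 and 1.74 kb at Ccr9. Cxcr4, Ccr7, Ccr6 and Ccr1 were lower in both H3K27ac and H3K56ac, as 18.6% of genes were, and Ccr2 was lower in H3K27ac. In scaled H3K27ac the members divided into 5 lower and 3 higher, where 28.2% of genes were lower and 43.3% higher. In scaled H3K18ac 1 member, Ccr7, was lower and 3 were higher, with 4 overlapping, where 45.9% of genes were lower and 29.1% higher. In scaled H3K56ac 4 were lower and 3 higher, against 44.4% and 27.8% of genes. Scaling reversed the sign of 4 differences whose lists stood apart as called, those of H3K18ac at Cxcr4 and Ccr1 and of H3K56ac at Cxcr4 and Ccr7. It also turned 4 whose lists overlapped as called, those of H3K27ac at Cxcr5 and Gpr183 and of H3K18ac at Ccr7 and Ccr2.

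**Figure D2:**
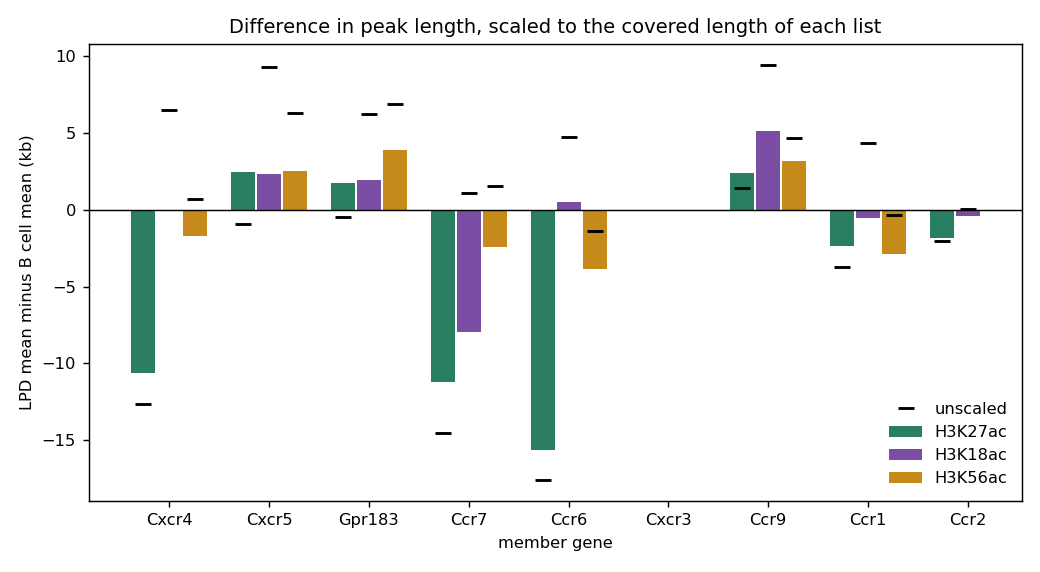
Difference of the LPD mean from the B cell mean in peak length (y axis, kb) for each member gene (x axis) and mark, with bars for lengths scaled to the covered length of each list and black dashes for the lengths as called. Cxcr5, Gpr183 and Ccr9 have bars above 0 in all 3 marks, while the H3K27ac bars of Cxcr4, Ccr7 and Ccr6 reach -10.6, -11.2 and -15.6 kb (the H3K18ac bar of Cxcr4, at -0.10 kb, is too short to see).

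Regions, the merged peaks of the 4 lists of a mark, give a second measure by place. Gained regions are those with peaks in the 2 LPD lists and none in B cells, lost regions those with peaks in the 2 B cell lists and none in LPD, and kept regions those with peaks in all 4 lists. Members had 82 H3K27ac regions, of which 7 were gained, 18 lost and 28 kept, where over all 40435 regions 11.4% were gained, 15.9% lost and 36.5% kept. The members' shares were 8.54%, 21.95% and 34.1%, the share lost being the only one of the 3 above that of all regions. Losses lay at 6 members and gains at 3 (Cxcr5, Ccr9 and Ccr1). Without LPD replicate 2, which had the shortest H3K27ac list of its group, 16 regions were gained, and without B cell replicate 2, 28 were lost. With lists of equal length, made by keeping the widest peaks, 7 were lost.

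Of 116 H3K18ac member regions 24 were gained, 2 lost and 37 kept (20.7%, 1.72% and 31.9%), where 25% of all regions were gained, 3.88% lost and 29.5% kept. Of 83 H3K56ac member regions 21 were gained, 6 lost and 23 kept (25.3%, 7.23% and 27.7%), where 23.7% were gained, 4.21% lost and 35.1% kept. These counts rest on the lists' lengths. With lists of equal length the gained and lost regions numbered 4 and 14 for H3K18ac and 2 and 17 for H3K56ac. Leaving out an LPD list gave 44 to 45 gained H3K18ac regions and 33 gained H3K56ac regions. Without B cell replicate 1, 9 H3K18ac regions were lost, and the lost H3K56ac regions numbered 12 without B cell replicate 2 and 10 without LPD replicate 2.

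Cxcr4, the receptor that retains cells in bone marrow, kept H3K27ac at its promoter in LPD and had little from 8 to 20 kb upstream. Its H3K27ac covered 18.7 and 18.5 kb in the B cell lists and 7.75 and 4.15 kb in the LPD lists, a 3.13-fold lower mean and rank 64 from the lowest of 11988 genes by difference in kb. All 4 lists had peaks within 1 kb of the start site, covering 2.001 kb in each B cell list and 1.61 and 1.20 kb in LPD. Of its 17 H3K27ac regions 5 were lost and 0 gained. The difference lay upstream: in a window from -20 to -8 kb from the start, chosen after the values were seen, H3K27ac covered 9.61 and 9.23 kb in B cells and 0.611 and 0 kb in LPD.

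That window held H3K18ac in both LPD lists, and little H3K56ac. H3K18ac covered 2.65 and 2.97 kb there in B cells and 4.31 and 2.72 kb in LPD, lists that overlap. H3K56ac covered 1.595 and 0.74 kb in B cells and 0 and 0.204 kb in LPD, lower in both. The widest H3K27ac region in it, chr1:128604303-128609662, had 5.09 and 5.36 kb in B cells and 0.22 and 0 kb in LPD, and so was not called lost because of 1 short peak in LPD replicate 1. Of the 5 lost H3K27ac regions of Cxcr4 the widest was chr1:128602056-128603289, at -10.4 kb from the start, with 1.23 and 1.07 kb in B cells. H3K18ac was present in both LPD lists at 3 of these 5.

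Further out the upstream acetylation remained. A region at -22.6 kb from the start, chr1:128612734-128617020, had H3K27ac of 4.19 and 4.27 kb in B cells and 2.52 and 2.23 kb in LPD. The widest gained H3K18ac region of Cxcr4, chr1:128617477-128618482, lay at -25.7 kb and had 1.01 and 0.633 kb in LPD. Gained H3K56ac of 0.78 and 0.544 kb lay at the same distance, and the widest H3K56ac loss, chr1:128606371-128607152, lay at -14.5 kb with 0.782 and 0.37 kb in B cells. Over the whole gene H3K18ac covered 7.08 and 8.42 kb in B cells and 16.4 and 12.1 kb in LPD, and H3K56ac 4.34 and 3.28 against 4.43 and 4.52 kb. The first was higher in both LPD lists by 6.49 kb on average, and differed by -0.10 kb after scaling.

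**Figure D3:**
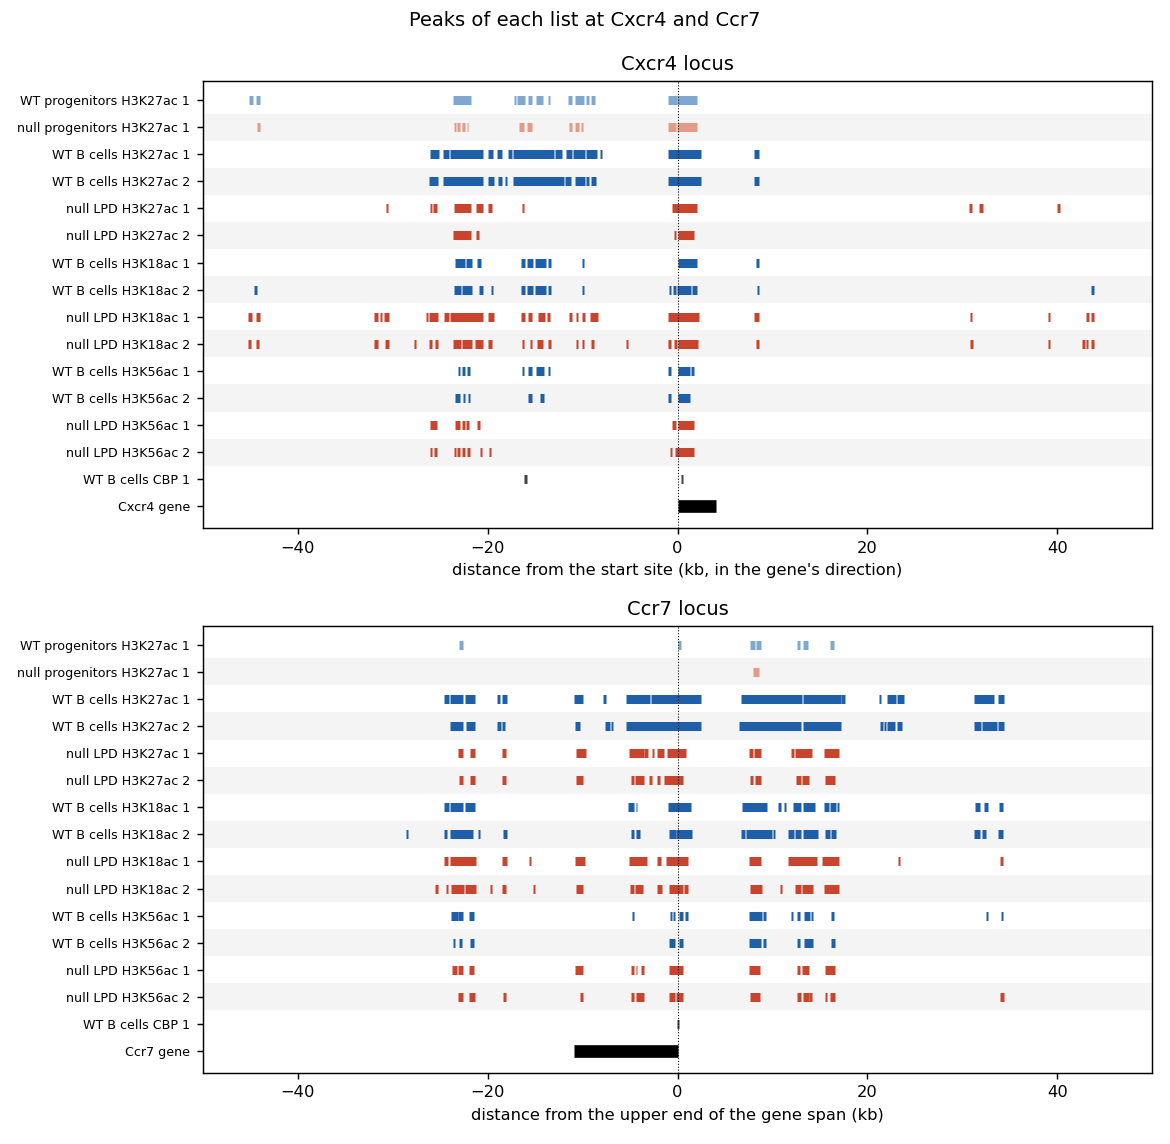
Peaks of each of the 15 lists (rows) at Cxcr4 and Ccr7, as bars along the distance from the Cxcr4 start site in the gene's direction or from the upper end of the Ccr7 span (x axis, kb), with the gene as a black bar. Between 8 and 20 kb before the Cxcr4 start the B cell H3K27ac rows are filled and the LPD rows hold 0.611 and 0 kb, and peaks beyond about 30 kb on the right of Ccr7 lie nearer to another gene and were not counted for it.

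Cxcr5, the follicle-homing receptor, kept its H3K27ac and had more of the other marks. H3K27ac covered 17.0 and 17.9 kb in B cells and 18.6 and 14.4 kb in LPD, ranges that overlap. H3K18ac covered 6.83 and 7.83 kb in B cells and 18.7 and 14.4 kb in LPD, higher in both LPD lists by 2.26-fold and rank 200 from the highest of 12228 genes. H3K56ac covered 3.76 and 4.08 kb in B cells and 9.65 and 10.8 kb in LPD, 2.60-fold higher and rank 148 from the highest of 11818. The differences of 9.25 and 6.28 kb shrank to 2.33 and 2.54 kb after scaling, or 1.22-fold and 1.47-fold, with both LPD lists still higher.

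Most of this lay in the gene body. The region chr9:44520576-44526536, which ends at the upper end of the gene, had H3K27ac of 5.19 and 5.18 kb in B cells and 5.90 and 5.34 kb in LPD. Within it H3K18ac covered 2.71 and 3.09 kb in B cells and 5.89 and 5.03 kb in LPD, and H3K56ac 1.93 and 1.94 against 4.67 and 4.74 kb. So at a region with nearly constant H3K27ac the other marks were longer in LPD as called. Lengths within the region were not scaled to covered length. Cxcr5 also gained 2 H3K27ac regions, the wider one at chr9:44562649-44563264 with 0.616 and 0.576 kb in LPD, 36.2 kb from the gene. The same place held the widest gained H3K18ac region (chr9:44562453-44563296, 0.844 and 0.764 kb), while the widest gained H3K56ac region was chr9:44527662-44528293 (0.511 and 0.248 kb). Its 2 lost H3K18ac regions, the wider one chr9:44544636-44545186 with 0.392 and 0.513 kb in B cells, were the only H3K18ac losses among the members.

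Gpr183, the oxysterol receptor, followed the same course inside the span that it shares with Ubac2. H3K27ac covered 11.0 and 11.7 kb in B cells and 12.2 and 9.61 kb in LPD, with overlap. H3K18ac covered 3.84 and 5.01 kb in B cells and 11.5 and 9.71 kb in LPD, and H3K56ac 2.55 and 2.27 kb against 8.36 and 10.1 kb, a 3.84-fold difference and rank 128 from the highest. After scaling the differences shrank from 6.20 to 1.95 kb for H3K18ac and from 6.84 to 3.90 kb for H3K56ac, the latter 2.17-fold. Within 1 kb of its start site H3K27ac overlapped, at 1.80 and 1.86 kb in B cells and 1.84 and 1.80 kb in LPD. H3K18ac covered 1.41 and 1.63 kb there against 1.83 and 1.81 kb, and H3K56ac 1.28 and 1.03 kb against 1.68 and 1.81 kb, both higher in both LPD lists as called. All 4 gained H3K56ac regions of Gpr183 lay in the gene, the widest, chr14:121958144-121959683, with 1.23 and 1.54 kb in LPD, and no region of any mark was lost.

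Ccr7, the T zone receptor, had the most H3K27ac of the 9 in B cells. Its H3K27ac was shorter in LPD over the assigned regions together, though the lists overlapped at the lower end of the gene. It covered 25.4 and 24.8 kb in B cells and 12.1 and 9.10 kb in LPD, 2.37-fold lower and rank 49 from the lowest. The widest region, chr11:99161574-99172279, starting 6.50 kb beyond the gene's upper end, had 10.4 and 10.5 kb in B cells and 4.68 and 3.19 kb in LPD. The region over the upper end itself, chr11:99149618-99157599, had 7.80 and 7.96 kb against 4.91 and 3.86 kb. Both kept peaks in all 4 lists, so these regions were narrowed and not called lost. The 5 lost regions were short, the widest of them chr11:99177152-99178099 with 0.948 and 0.845 kb in B cells.

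The other marks at Ccr7 differed less. H3K18ac covered 13.0 and 13.8 kb in B cells and 15.9 and 13.0 kb in LPD, which overlap, and was lower in both LPD lists after scaling, a difference of -7.94 kb. H3K56ac covered 6.77 and 5.43 kb in B cells and 7.77 and 7.49 kb in LPD, a difference of 1.53 kb as called and -2.42 kb after scaling. Some of the H3K18ac and H3K56ac new to LPD lay at the lower end of the gene. There chr11:99144314-99145318 had H3K18ac of 1.01 and 0.745 kb in LPD, and H3K56ac was gained too (0.816 and 0.306 kb). H3K27ac at this place was kept, with 0.944 and 0.496 kb in B cells and 1.05 and 0.702 kb in LPD. The widest gained H3K56ac region, chr11:99150654-99151519, had 0.497 and 0.809 kb, and the only H3K56ac loss, chr11:99164064-99164388, had 0.325 and 0.307 kb in B cells.

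Ccr6, a receptor of mature B cells, had the largest H3K27ac difference of the members in kb, though by fold that of Ccr2 was larger (8.74-fold). It covered 20.3 and 20.2 kb in B cells and 3.52 and 1.89 kb in LPD, 7.50-fold lower and rank 33 from the lowest of 11988 genes. In B cells 1 region of 12.9 kb, chr17:8231949-8244868, covered both start sites, with 12.8 and 12.9 kb of peaks. In LPD the same region held 2.096 and 0.28 kb. Within 1 kb of either start site H3K27ac covered 1.994 to 2.001 kb in B cells and 0 kb in both LPD lists, so the promoter itself had no H3K27ac peak there.

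H3K18ac did not follow. In the same region it covered 3.19 and 2.83 kb in B cells and 5.66 and 6.03 kb in LPD, and over the gene 4.80 and 5.26 kb against 9.88 and 9.62 kb, higher in both LPD lists. After scaling the H3K18ac lists overlapped. At the upstream start site H3K18ac covered 0.397 and 0.53 kb in B cells and 0.146 and 0.475 kb in LPD. H3K56ac over the gene overlapped, at 5.80 and 3.60 kb against 2.62 and 4.01 kb, and was lower in both LPD lists after scaling, a difference of -3.85 kb. The widest lost H3K27ac region, chr17:8255017-8255918 in the gene body, had 0.902 and 0.875 kb in B cells, and the only H3K56ac loss, chr17:8234892-8235205 just before the start, had 0.314 and 0.232 kb.

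Ccr9, the gut-homing receptor, went the other way at its start site. Within 1 kb of the start H3K27ac covered 0 kb in both B cell lists and 0.634 and 0.347 kb in LPD, and H3K18ac 0 kb against 0.817 and 0.332 kb. H3K56ac had no peak there in any list. Over the gene H3K27ac covered 4.81 and 4.87 kb in B cells and 7.66 and 4.83 kb in LPD, which overlap, with 3 regions gained and 2 lost. H3K18ac covered 3.13 and 3.64 kb against 13.97 and 11.6 kb, 3.78-fold higher and rank 191 from the highest, and H3K56ac 0.817 and 0.834 kb against 5.20 and 5.82 kb, 6.67-fold higher. After scaling these were 2.06-fold and 3.76-fold, with differences of 5.12 and 3.17 kb.

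New acetylation at Ccr9 formed a block before the gene. From 10 kb before to 3 kb after the start, a window chosen after the values were seen, H3K27ac covered 1.93 and 1.92 kb in B cells and 5.88 and 3.39 kb in LPD. H3K18ac covered 0.78 and 1.18 kb there against 9.20 and 7.62 kb, and H3K56ac 0 and 0 against 3.42 and 3.93 kb. All 3 marks were thus longer in both LPD lists in that block as called, without scaling to covered length. The widest gained regions were chr9:123758778-123760117 for H3K27ac (1.34 and 0.287 kb in LPD), chr9:123756570-123758608 for H3K18ac (2.04 and 1.91 kb) and chr9:123761134-123763185 for H3K56ac (1.58 and 1.94 kb). The 2 lost H3K27ac regions lay further upstream, the wider one at chr9:123750358-123750903 with 0.406 and 0.546 kb in B cells, and kept H3K18ac in LPD.

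**Figure D4:**
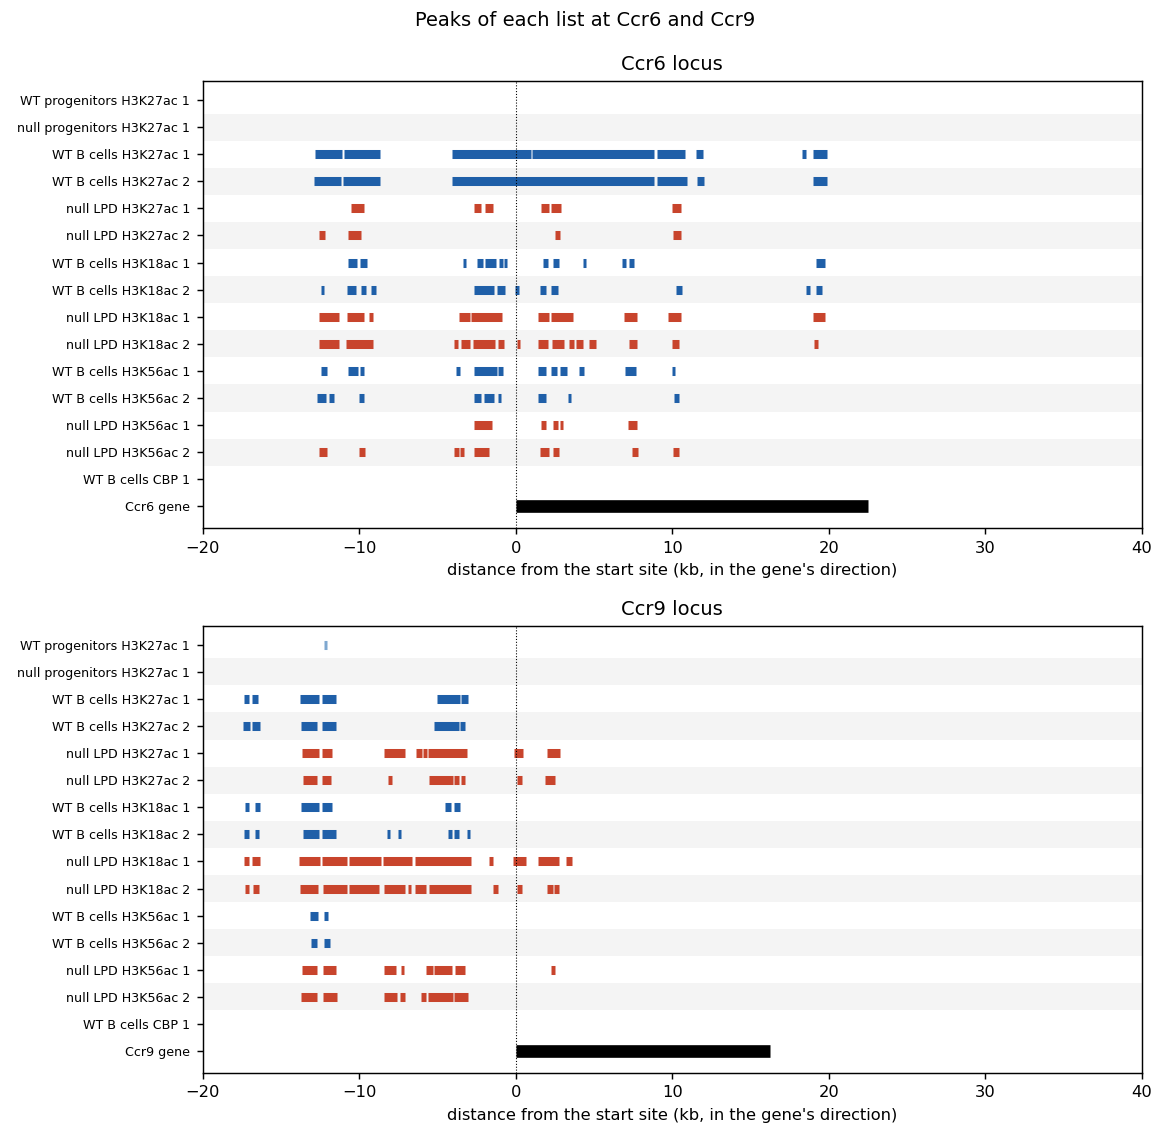
Peaks of each of the 15 lists (rows) at Ccr6 and Ccr9, as bars along the distance from the start site in the gene's direction (x axis, kb; the upstream of the 2 start entries for Ccr6), with the gene as a black bar. The B cell H3K27ac rows of Ccr6 are filled across the start, where the LPD rows hold no peak within 1 kb, and at Ccr9 the LPD rows hold peaks from about 10 kb before to 3 kb after the start that the B cell rows mostly lack.

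Among the receptors of inflammatory chemokines, Cxcr3 had no peak assigned in any of the 15 lists. The nearest peak was 90.1 to 91.2 kb away in 12 of the 14 acetylation lists, and 30.8 kb away in the H3K27ac and H3K18ac lists of LPD replicate 1, nearer to another gene. Ccr1 had H3K27ac of 10.5 and 10.1 kb in B cells and 8.49 and 4.68 kb in LPD, lower in both. That difference was -3.75 kb on average, and -0.0845 kb with the gene span and 1 kb alone. In H3K18ac Ccr1 had 5.56 and 5.79 kb against 12.6 and 7.36 kb, higher in both as called and overlapping after scaling. Its H3K56ac lists overlapped, at 4.55 and 4.25 kb against 3.80 and 4.31 kb. At its start site H3K27ac covered 0.687 and 0.838 kb in B cells and 0.827 and 0 kb in LPD, an overlap with 1 LPD list at 0.

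Ccr1 had the widest gained region of any mark among the members. At chr9:123935374-123937725, 32.1 kb after the start, H3K18ac covered 2.35 and 1.95 kb in LPD and none in B cells. H3K27ac was gained there as well (chr9:123935855-123937590, 1.74 and 1.01 kb) and so was H3K56ac (chr9:123936799-123937407, 0.589 and 0.538 kb). The widest lost H3K27ac region, chr9:123951025-123952292, had 1.17 and 0.722 kb in B cells, and the widest lost H3K56ac region, chr9:123929945-123931081, had 1.14 and 0.817 kb. Ccr2 had little acetylation: H3K27ac of 2.31 and 2.24 kb in B cells and 0.521 and 0 kb in LPD, H3K18ac of 0.217 and 0.926 kb against 1.18 and 0 kb, and no H3K56ac peak. Its 2 lost H3K27ac regions adjoin each other, the wider one being chr9:124068604-124069162 with 0.559 and 0.442 kb in B cells.

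At Cxcr4, Ccr6 and Ccr1 H3K27ac was lower and H3K18ac higher in both LPD lists, as 12.3% of the 11587 genes with regions of both marks were. H3K18ac was present in both LPD lists at 6 of the members' 18 lost H3K27ac regions, where this held for 13.2% of all lost regions. These were 3 at Cxcr4, 2 at Ccr9 and 1 at Ccr6, and 0 at Ccr7, Ccr1 and Ccr2. For Cxcr4 and Ccr1 the opposite signs were not seen after scaling, and for Ccr6 the H3K18ac lists then overlapped.

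In progenitors the receptors were acetylated in part, and Cxcr4 the most. H3K27ac over the members covered 18.3 kb in the wild-type list and 10.7 kb in the Crebbp-null list. The log2 ratio of these sums was -0.77, and -0.19 per covered Mb. A different measure, the median of single-gene log2 ratios, was -0.35 over all genes with a peak in both lists. With 1 list per genotype there is no test. All 6 members with a progenitor region had less in the Crebbp-null list, as 88.1% of 9766 genes did. Of 31 regions 16 were in the wild-type list only and 2 in the Crebbp-null list only (51.6% and 6.45%), where 31% and 2.87% of 17502 regions were.

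At Cxcr4 the wild-type progenitor list held 10.4 kb and the Crebbp-null list 6.38 kb, and the start site was covered in both (1.94 and 1.92 kb within 1 kb). In the window from 8 to 20 kb upstream the lists held 4.57 and 1.94 kb. This is the window that was nearly empty of H3K27ac in LPD. Of the 14 progenitor regions of Cxcr4 6 were in the wild-type list only and 8 in both. Ccr7 had 3.02 and 0.705 kb, Cxcr5 1.095 and 0.273 kb, Gpr183 0.328 and 0.247 kb, and Ccr1 3.27 and 3.14 kb. Ccr9 had 0.238 kb in the wild-type list and no peak in the Crebbp-null list, and Ccr6, Cxcr3 and Ccr2 had no peak in either list.

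Wild-type B cells had more H3K27ac than wild-type progenitors at all 8 members with a peak in either, as 86.8% of genes did, a log2 ratio of 2.59 over the members and 1.08 per covered Mb. After scaling to covered length 7 of the 8 had more, all but Cxcr4, where 32.4% of genes did. Ccr6 had 0 kb in the progenitor lists and 20.3 and 20.2 kb in B cells, and stages between them were not measured. Of the 29 regions in the wild-type progenitor list 27 had peaks in both B cell lists, where 86.8% of all 16999 such regions did. In LPD 17 of the 29 had peaks in both lists and 10 in none, where 79% and 15.5% of all such regions did. Of those 10, 8 lay in the upstream block of Cxcr4 and 2 lay at -44.1 and -44.9 kb, where B cells had none either.

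**Figure D5:**
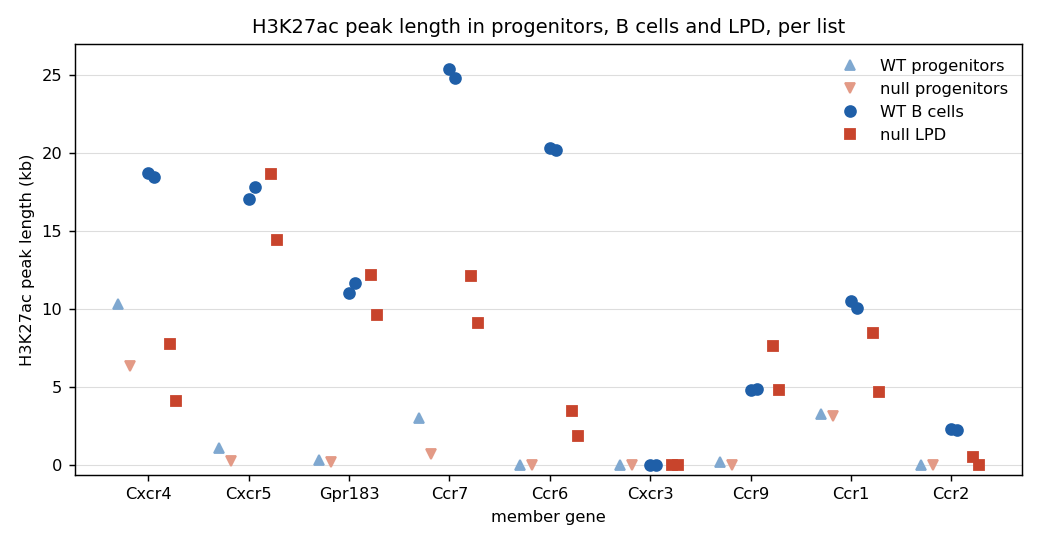
H3K27ac peak length in kb (y axis) of each member gene (x axis) in wild-type progenitors, Crebbp-null progenitors (1 list each), sorted B cells and unsorted LPD (2 lists each). Ccr6 goes from 0 kb in progenitors to 20.3 and 20.2 kb in B cells and 3.52 and 1.89 kb in LPD, whereas Cxcr4 has 10.4 kb in wild-type progenitors already.

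CBP itself was found at 4 of the 9 members with 5 peaks, where 3.85% of protein-coding genes had one. That share counts genes with and without an acetylated region. The list holds 1000 peaks with a median width of 260 bp. Cxcr4 had a peak at chr1:128591743-128591942, 0.457 kb inside the start, and another at chr1:128608112-128608483, at -16.0 kb and thus in the block with little H3K27ac in LPD. Ccr7 had a peak over its upper end (chr11:99155059-99155280), and so had Cxcr5 (chr9:44526334-44526763). The peak assigned to Ccr1, chr9:123928084-123929370, was 1287 bp wide, rank 5 of 1000 by width, and lay 32.8 kb from the gene.

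Acetylation at the CBP peaks differed by place. All 5 overlapped H3K27ac and H3K18ac in both B cell lists, as 72.7% of the 1000 CBP peaks did. In LPD the peaks at the starts and gene ends of Cxcr4, Ccr7 and Cxcr5 and the peak near Ccr1 had all 3 marks in both lists, as 63.4% of CBP peaks did. The upstream Cxcr4 peak had H3K27ac in 1 LPD list, H3K18ac in both and H3K56ac in no list of either group. Gpr183, Ccr6, Cxcr3, Ccr9 and Ccr2 had no CBP peak, although Ccr6 had a wide H3K27ac region in B cells. With 1 list of 1000 peaks covering 0.305 Mb, the lack of a peak does not show that CBP was absent. Under assignment to gene spans with 1 kb alone 3 CBP peaks were counted, and 9 when every peak within 50 kb was.

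A list of 74 pathway genes, of which 73 were matched, gives the setting. It holds other chemokine receptors, ligands of the members, lipid and nucleotide migration receptors, adhesion genes, and genes of receptor signalling and its brakes. Of 50 with an H3K27ac region 24 were lower and 10 higher in both LPD lists, and after scaling 19 were lower and 19 higher. For H3K18ac 36 of 51 were higher and 5 lower (22 and 16 after scaling), and for H3K56ac 34 of 47 were higher and 3 lower (20 and 18 after scaling). Over all genes with a region 23.2% were higher and 38.9% lower for H3K27ac (43.3% and 28.2% after scaling). For H3K18ac these shares were 54% and 12% (29.1% and 45.9% after scaling). For H3K56ac they were 67.1% and 8.48% (27.8% and 44.4% after scaling). The median log2 ratios of the pathway genes were -0.27, 0.91 and 0.67, beside -0.13, 0.40 and 0.50 over all genes.

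Adhesion and homing genes went both ways. Itgb1, an integrin chain, had H3K27ac of 0.902 and 0.949 kb in B cells and 13.0 and 9.59 kb in LPD, and Cd44, the hyaluronan receptor, 12.4 and 11.6 kb against 23.9 and 14.8 kb. Itgb7, the chain of the gut-homing integrin, had 1.55 and 1.57 kb against 4.21 and 3.28 kb. Itgb1 and Cd44 were also higher in H3K18ac and H3K56ac, as called and after scaling, and so was Selplg, the selectin ligand, with H3K18ac of 1.98 and 3.10 kb in B cells and 8.09 and 7.65 kb in LPD. In this list H3K27ac was lower at 3 and higher at 3 of 9 genes with a region (1 and 4 after scaling). Of all genes 38.9% were lower and 23.2% higher (28.2% and 43.3% after scaling). H3K18ac was higher at 9 of 9 (5 after scaling, with 0 lower), where 54% of all genes were (29.1% after scaling).

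Among genes of receptor signalling, H3K27ac was lower at 12 and higher at 3 of 24 as called, where 38.9% and 23.2% of all genes were. After scaling it was lower at 11 and higher at 9, against 28.2% and 43.3% of all genes. Ptk2b, a kinase downstream of chemokine receptors, had 33.8 and 33.4 kb in B cells and 4.64 and 2.30 kb in LPD, and Rgs13, a brake on G protein signalling in germinal centre B cells, 6.83 and 7.07 kb against 0.803 and 0 kb. Both were lower in H3K18ac as well. Grk3, a kinase that desensitises receptors, had no peak of any mark in B cells. In LPD Grk3 had H3K27ac of 11.0 and 7.49 kb, H3K18ac of 14.8 and 13.8 kb and H3K56ac of 7.83 and 7.97 kb. Rap1a, Rac2 and Gnai2 also had gained regions, for instance H3K18ac of 0.334 and 0.301 kb in B cells and 7.51 and 5.97 kb in LPD at Rap1a, a GTPase of integrin activation. Elmo1 lost 3 H3K27ac regions, with 11.0 and 10.3 kb in B cells and 10.4 and 5.19 kb in LPD. In H3K18ac Elmo1 gained 8 regions and lost 3, with 5.055 and 4.436 kb in B cells and 12.7 and 6.205 kb in LPD. Rap1b lost 1 H3K56ac region. Its H3K56ac was higher in both LPD lists as called (3.48 and 2.85 kb against 3.56 and 3.85 kb) and lower after scaling.

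Ackr3 and Ackr2, atypical receptors that take up chemokines, were higher in LPD. Ackr3, which binds the Cxcr4 ligand Cxcl12, had H3K27ac of 0.973 and 1.09 kb in B cells and 4.93 and 3.47 kb in LPD, and H3K56ac in LPD alone (3.76 and 4.28 kb). Ackr2 had H3K27ac of 1.091 and 1.099 kb against 5.39 and 3.38 kb. Xcr1, beside Ccr1, had H3K27ac of 4.16 and 3.64 kb against 3.25 and 2.53 kb. Ccr3 and Cxcr1 had short peaks in LPD alone, H3K27ac of 0.311 and 0.254 kb and H3K18ac of 0.8 and 0.458 kb. Among these other chemokine receptors H3K27ac was lower at 2 and higher at 3 of 6 (1 and 4 after scaling). The shares of all genes were 38.9% and 23.2% (28.2% and 43.3% after scaling).

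Lipid and nucleotide receptors were lower in H3K27ac at 5 and higher at 1 of 8 (5 and 2 after scaling). The shares of all genes were 38.9% and 23.2% (28.2% and 43.3% after scaling). Cnr2, a cannabinoid receptor of white blood cells, had 19.8 and 20.4 kb in B cells and 9.04 and 6.65 kb in LPD, and P2ry10 5.45 and 5.46 kb against 2.58 and 1.86 kb. S1pr1, the sphingosine phosphate receptor for exit from lymphoid organs, overlapped in H3K27ac (25.2 and 24.02 kb against 24.3 and 18.2 kb) and had more H3K18ac, 11.0 and 10.1 kb against 26.2 and 19.2 kb. Gpr18, the neighbour of Gpr183, had H3K18ac of 1.73 and 2.35 kb in B cells and 6.16 and 5.56 kb in LPD. S1pr3 had more H3K18ac as called (5.19 and 6.21 kb against 9.76 and 7.75 kb) and less after scaling, and Gpr132 had H3K56ac of 1.29 and 0.873 kb against 1.86 and 2.54 kb, overlapping after scaling. Of 14 ligands matched 3 had an H3K27ac region, and Ccl3, a ligand of Ccr1, had 2.34 and 2.21 kb in the B cell lists and 0 kb in both LPD lists.

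The genes whose lengths followed each member most closely over the 14 acetylation lists were sought among 10686 genes, by Pearson correlation of log2(kb + 0.1). They were Iqsec1 (r = 0.996) and Grap (0.992) for Cxcr5, Zc3h12d (0.995) and Catsperg1 (0.993) for Gpr183, and Ms4a4a (0.993) and Oasl1 (0.989) for Ccr7. For Ccr6 they were Olfr97 (0.984) and Prkca (0.984), for Ccr9 Sub1 (0.990) and Hilpda (0.990), and for Ccr1 St3gal6 (0.968) and Cc2d2b (0.968). Cxcr4 had the least close likeness, with Camkk2 (0.929) and Astl (0.919). The 14 lists differ in mark, cell type and covered length, which all genes share, so high values are common and are given as a description.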

How the data were processed

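Tools named in the submitters' processing notes are Bowtie2 2.1.0, MACS2 2.0.10, Picard and bedtools, on build mm10, in settings not given in the sources used here. The files deposited by the authors give only where peaks start and end, without a score, for 1 library each, so no count, height or depth stands behind a peak. The 15 samples without a list were not analysed here.

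Regions were made by merging overlapping and touching peaks of a mark's 4 lists, and a list had a region with 1 bp of overlap. Peak lengths per gene are sums over its assigned regions, and a region in overlapping gene spans counts for each. Group sums were compared on the log2 scale by an exact two-sided permutation test of 2 lists against 2. Alternatives changed the assignment, overlap, merging, peak width, list length, pseudocount and lists used, and the scaling to covered length of single members was added after seeing the data. Code was tested on simulated data. Python 3.11.15, NumPy 2.4.6 and Matplotlib 3.10.9 were used.

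Described are all 9 members in every list, their widest gained and lost regions per mark, regions with a CBP peak, up to 3 pathway genes per list, mark and direction with the most called length (some of these are not reported here), and the 2 likest genes per member with a called region, among genes with peaks in at least 7 lists. Windows before Cxcr4 and Ccr9, and the regions shown for comparison that were not called gained or lost, were chosen after their values were seen. Of the 50 marker genes all 50 were matched. The members and lists were chosen with earlier results of these data known.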

Additional observations from a re-analysis of the deposited data

Results flagged for a closer look

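At 3 members the marks went opposite ways in every list: H3K27ac was lower and H3K18ac higher in both LPD lists than in both B cell lists. The log2 ratio of LPD over B cells was higher for H3K18ac than for H3K27ac by 2.58 at Cxcr4, by 3.93 at Ccr6 and by 1.48 at Ccr1. The difference between the marks was not tested. The covered length of the LPD lists was longer for H3K18ac and shorter for H3K27ac than that of the B cell lists, and after scaling to it H3K18ac at Cxcr4 and Ccr1 differed by -0.10 and -0.57 kb. At Ccr6 the H3K18ac difference shrank from 4.72 to 0.48 kb and its lists overlapped, so H3K18ac was higher in both LPD lists at 0 of the 3 after scaling.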

How the results depend on the processing

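Assigning only regions in gene spans and 1 kb around them gave 3 gained and 3 lost H3K27ac regions, 9 and 0 for H3K18ac, and 11 and 1 for H3K56ac. Taking every region within 50 kb gave 14 and 37, 43 and 4, and 43 gained for H3K56ac. With lists of equal length the gained and lost regions numbered 4 and 14 for H3K18ac and 2 and 17 for H3K56ac, and 7 H3K27ac regions were lost. Peaks of at least 500 bp gave 13 gained and 1 lost for H3K18ac and 9 and 2 for H3K56ac. Merging across 500 bp gave 7 lost for H3K27ac, 1 lost for H3K18ac, and 8 gained and 2 lost for H3K56ac.

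Leaving out 1 list at a time gave 7 to 16 gained and 19 to 28 lost H3K27ac regions, 27 to 45 and 2 to 9 for H3K18ac, and 23 to 33 and 7 to 12 for H3K56ac. The log2 ratios of the sums then lay between -1.18 and -0.64, 0.71 and 1.08, and 0.63 and 0.90. Per covered Mb the H3K56ac ratio was -0.053. The H3K27ac ratio was below 0 and the H3K18ac ratio above 0 under every alternative run.

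The progenitor ratio was -0.49 for gene spans, -0.83 within 50 kb, -0.19 per covered Mb and -0.89 for peaks of at least 500 bp, and the ratio of B cells over progenitors 3.67, 2.73, 1.08 and 3.11. CBP peaks numbered 3 for gene spans and 9 within 50 kb.

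For single members 139 of 207 values moved by less than the spread between lists, and 22 changed sign, 8 of them at differences whose lists stood apart as called and 14 where they overlapped. In gene spans and 1 kb alone the H3K27ac difference was -1.19 kb for Cxcr4, -3.90 for Ccr7 and -14.5 for Ccr6. For Ccr1 it was then -0.0845 kb and for Ccr2 -1.23 kb. With lists of equal length the difference in kb was -1.29 for Cxcr4 and -0.42 for Ccr1 in H3K18ac, and -1.08 for Cxcr4 and -2.21 for Ccr7 in H3K56ac. After scaling these were -0.10, -0.57, -1.73 and -2.42 kb. Why they changed was not tested beyond the covered length that both settings make equal. For H3K27ac at Gpr183 the settings differed in sign, with -0.36 kb for lists of equal length and 1.75 kb after scaling.

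Replicates shared only a number. The deviations of same-numbered lists correlated at 0.02, -0.03 and -0.03 for the 3 marks, and with the replicate block the log2 ratios stayed -0.91, 0.90 and 0.77, with an exact p = 0.5, the smallest that 2 pairs allow.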
